A study of Mus musculus with 6 samples.

Results

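The genes described here encode the MEF2 transcription factors, histone acetyltransferases and transcriptional repressors that are known as partners of the class IIa histone deacetylases, the family to which HDAC9 belongs. Members were all probe sets whose gene symbol in the platform annotation is Mef2a, Mef2c, Mef2d, Ncor1, Kat5, Ep300, Crebbp, Kat2b or Bcl6. Of the 9 listed genes, 6 had a probe set, with 17 probe sets in all out of 22626 tested on the array. Genes with a named probe set numbered 12393 in the whole series. Mef2a and Mef2c had 5 probe sets each, Mef2d, Kat2b and Bcl6 had 2 each and Crebbp had 1. The annotation used names no probe set for Ncor1, Kat5 or Ep300, and these genes were not analysed here.

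Regulatory T cells (Treg), selected magnetically as CD4+CD25+ cells, were taken from 3 HDAC9-/- samples and from 3 wild type samples, all on the C57BL/6 strain. Total RNA of each sample was read on its own expression array. HDAC9-/- mice lack the gene for HDAC9, a deacetylase with little enzymatic activity of its own that represses genes by binding transcription factors and corepressors. The sources used here state neither the deleted exons nor the age and sex of the mice, nor how many mice stand behind a sample. The p-values therefore cover only the spread among these 6 samples, part of which may be technical. A value is the log2 expression level of 1 probe set on 1 array, and a difference is the HDAC9-/- mean minus the wild type mean, so that 1 stands for a doubling. Levels are not compared between probe sets, because each binds its RNA with its own strength.

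MEF2 proteins bind an AT-rich DNA element and drive genes of muscle, neurons and activated lymphocytes. Class IIa deacetylases hold MEF2 in a repressive complex together with NCoR and HDAC3, and leave it for the cytoplasm when calcium-dependent kinases phosphorylate them and 14-3-3 proteins bind them. The acetyltransferases p300, CBP, PCAF and TIP60 work in the opposite direction and add acetyl groups to histones, to MEF2 and, in Treg, to Foxp3. BCL6 is a repressor that recruits class IIa deacetylases and NCoR and is required for follicular regulatory T cells.

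The array medians lay between 5.69 and 5.81, and the mean correlation of an array with the others was lowest, at 0.991, for wild type replicate 3. As a sign of RNA quality, the Gapdh control probe sets for the 3′ end exceeded those for the 5′ end by 0.276, 0.168 and 0.155 in HDAC9-/- samples, against 0.113, 0.026 and 0.050 in wild type samples, and these groups did not overlap. The same measure for actin was 0.599, 0.423 and 0.467 in HDAC9-/- samples and 0.414, 0.334 and 0.460 in wild type samples, and here the groups overlapped. Markers of CD4+ and Treg identity had mean levels of 10.24 to 10.33 in HDAC9-/- samples and 10.23 to 10.30 in wild type samples, which overlap. Among their 8 genes the groups did not overlap for 1 (12.5%, against 18.2% of all genes), Il2ra, which encodes the CD25 used for selection. It read 9.42, 9.34 and 9.42 in HDAC9-/- samples and 9.45, 9.46 and 9.54 in wild type samples (difference -0.085, limma adjusted p = 0.713). Foxp3, the factor that defines Treg, differed by 0.032. Hdac9 itself read 3.74, 3.62 and 3.66 in HDAC9-/- samples and 3.50, 3.74 and 4.10 in wild type samples on a dim probe set (difference -0.10, limma adjusted p = 0.839). This probe set gave no check of the genotype, since the groups overlap and where it lies relative to the deletion is not given.

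No MEF2, acetyltransferase or Bcl6 probe set passed the test between HDAC9-/- and wild type Treg. At a limma p adjusted by Benjamini-Hochberg over all probe sets and a threshold of 0.05, 0 of 17 were called, where 0.0133% of all probe sets were called. The adjusted p of the members ran from 0.548 to 0.982, and 1344 probe sets of the array had a smaller unadjusted p than any of them. By unadjusted p below 0.05, 2 of 17 (11.8%) passed, a probe set of Mef2d and one of Kat2b, against 8.78% of all probe sets. The groups did not overlap for the same 2 probe sets, where 17.0% of all probe sets did not overlap. Both were lower in HDAC9-/-, where 6.04% of all probe sets were separated in that direction. Over the 17, 8 differences were positive and 9 negative, with a median of -0.0074 and a range of -0.53 to 0.34, while the median over all probe sets was 0.00779. The median size of a difference, without its sign, was 0.105 among the members and 0.0925 among all probe sets. For the 9 members at or above the median signal, the 95% confidence intervals reached at most from -0.51 to 0.60. Because whole samples of sorted cells were measured, fewer cells of a type and less RNA per cell cannot be told apart in any of these values.

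**Figure D1:**
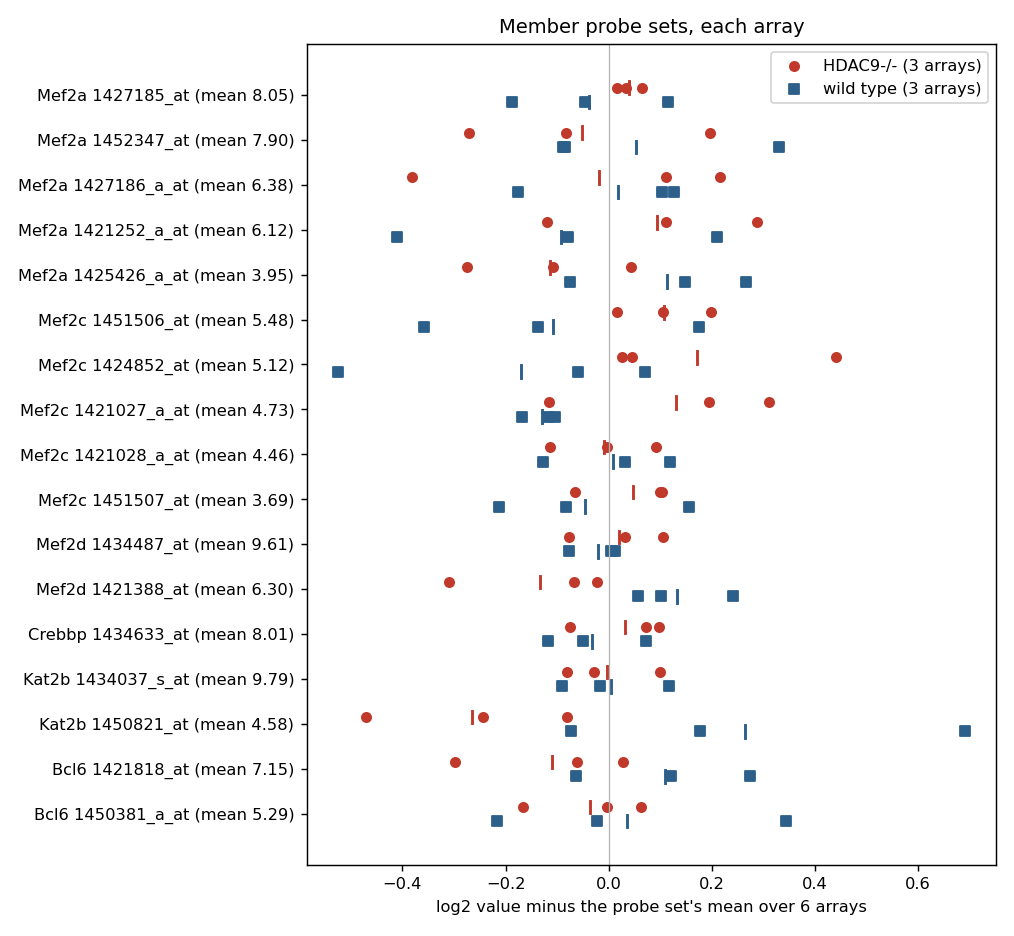
Each row is 1 member probe set, and the horizontal axis is its log2 value on an array minus its mean over the 6 arrays. Circles are the 3 HDAC9-/- arrays, squares the 3 wild type arrays and vertical ticks the group means. Only Mef2d 1421388_at and Kat2b 1450821_at have HDAC9-/- points that all lie below the wild type points.

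Mef2d encodes a MEF2 factor found widely in lymphocytes. Its bright probe set, 1434487_at, read 9.53, 9.64 and 9.71 in HDAC9-/- samples and 9.62, 9.61 and 9.53 in wild type samples. The groups overlapped, and the difference was 0.040 (95% confidence interval -0.14 to 0.22, limma adjusted p = 0.874). The other probe set, 1421388_at, read 6.23, 6.27 and 5.99 in HDAC9-/- samples against 6.40, 6.35 and 6.54 in wild type samples. Every HDAC9-/- value lay below every wild type value, with 0.081 between the groups. The means were 6.16 ± 0.15 in HDAC9-/- and 6.43 ± 0.096 in wild type (SD, n = 3 each), a ratio of 0.831. The difference was -0.27 (95% confidence interval -0.50 to -0.030), with an unadjusted limma p of 0.0326 and an adjusted p of 0.548, so it did not pass. The gap between the Mef2d probe sets changed with genotype by -0.31 (exact two-sided permutation test over the samples, p = 0.1, the smallest p that 3 against 3 samples allow), a contrast chosen after the values were seen. Which Mef2d transcripts each probe set reads was not examined here, and the part of the 3′ to 5′ measures given above, which separate the groups for Gapdh but not for actin, was not tested.

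Mef2a encodes a MEF2 factor found in most tissues. None of its 5 probe sets passed, and 3 of them are annotated to the same sequence record. The brightest, 1427185_at, read 8.06, 8.08 and 8.11 in HDAC9-/- samples and 8.002, 7.86 and 8.16 in wild type samples. Its HDAC9-/- values were all inside the wild type range (difference 0.077, 95% confidence interval -0.14 to 0.29, limma adjusted p = 0.800). Leaving out wild type replicate 2 gave a difference of 0.0031, and leaving out replicate 3 one of 0.15. Among the other 4, 1421252_a_at differed by 0.19 (95% confidence interval -0.23 to 0.60), or by 0.027 to 0.34 when 1 array was left out. Differences were -0.036 for 1427186_a_at, -0.11 for 1452347_at and -0.23 for the dim 1425426_a_at, and the groups overlapped on all 4.

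The Mef2a promoter is shown because it is the one among the 6 genes in which the MEF2 consensus was found, a pattern of letters named for the factors. The sequence is RefSeq's, from GRCm38.p6, chr7:67372839-67372950, read along the minus strand, which is the gene's. Capitals mark the consensus, which runs from base -2 to base 8 relative to the start of the gene.
Mef2a promoter: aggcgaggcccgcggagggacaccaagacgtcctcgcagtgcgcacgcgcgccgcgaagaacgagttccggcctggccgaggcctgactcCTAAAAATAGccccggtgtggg
The pattern searched allows either A or T at its inner positions and is found at the same place on both strands, so each match counts once. The marked letters are one of its spellings. It occurred in 1047 of 32851 promoter windows (3.19%), each with 250 bases before a gene's start and 50 after it. The 3 windows of Mef2c, the 2 of Kat2b, the 2 of Bcl6 and the 1 each of Mef2d and Crebbp hold no match to the pattern, which says nothing about binding of MEF2 to those genes. A match describes the sequence and is not evidence of a site.

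Mef2c, the MEF2 factor best known from muscle, neurons, B cells and myeloid cells, was dim on these arrays. Of its 5 probe sets, 3 are annotated to the same sequence record. All 5 had means below 5.76, the median over all probe sets, where RMA (the normalization behind these values) makes differences smaller than they are. Of the 5, 4 read higher on average in HDAC9-/- but none passed, and no groups were separate. Probe set 1424852_at, with the largest difference, read 5.56, 5.16 and 5.15 in HDAC9-/- samples and 5.06, 5.19 and 4.60 in wild type samples. The overlap came from wild type replicate 2, above 2 of the HDAC9-/- values (difference 0.34, 95% confidence interval -0.093 to 0.78, limma adjusted p = 0.617). Without wild type replicate 3 the difference was 0.16. Probe set 1421027_a_at read 5.04, 4.92 and 4.61 in HDAC9-/- samples and 4.56, 4.62 and 4.61 in wild type samples. HDAC9-/- replicate 3 fell within the wild type range here (difference 0.26, 95% confidence interval -0.014 to 0.53, limma adjusted p = 0.580). The other 3 differed by 0.21 for 1451506_at, 0.093 for 1451507_at and -0.016 for 1421028_a_at.

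B cells and myeloid cells, which express Mef2c, were followed by lists of marker genes, using the brightest probe set of each gene. Myeloid markers had a mean level of 7.99, 8.08 and 7.67 in HDAC9-/- samples and 7.17, 7.57 and 7.59 in wild type samples, so that all HDAC9-/- samples were the higher. All 15 of the 15 myeloid genes had a positive difference (median 0.36), where 6697 of 12393 genes were positive. This list, like the others, was chosen with earlier results of these data known, so its counts are not independent evidence. The groups did not overlap for 6 of the 15 (40%, against 18.2% of all genes), none passed the test, and 4 of the 15 were below the median signal. B cell markers were mixed: 5 of 9 differences were positive, with mean levels of 6.67, 6.45 and 6.09 in HDAC9-/- samples and 6.46, 6.22 and 6.40 in wild type samples, and 3 of the 9 were below the median signal. Natural killer and CD8 T cell markers had 6 of 7 positive differences, and mean levels of 8.57, 8.37 and 8.15 in HDAC9-/- samples against 8.04, 8.11 and 8.26 in wild type samples. The part of these cells in the Mef2c values was not tested.

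**Figure D2:**
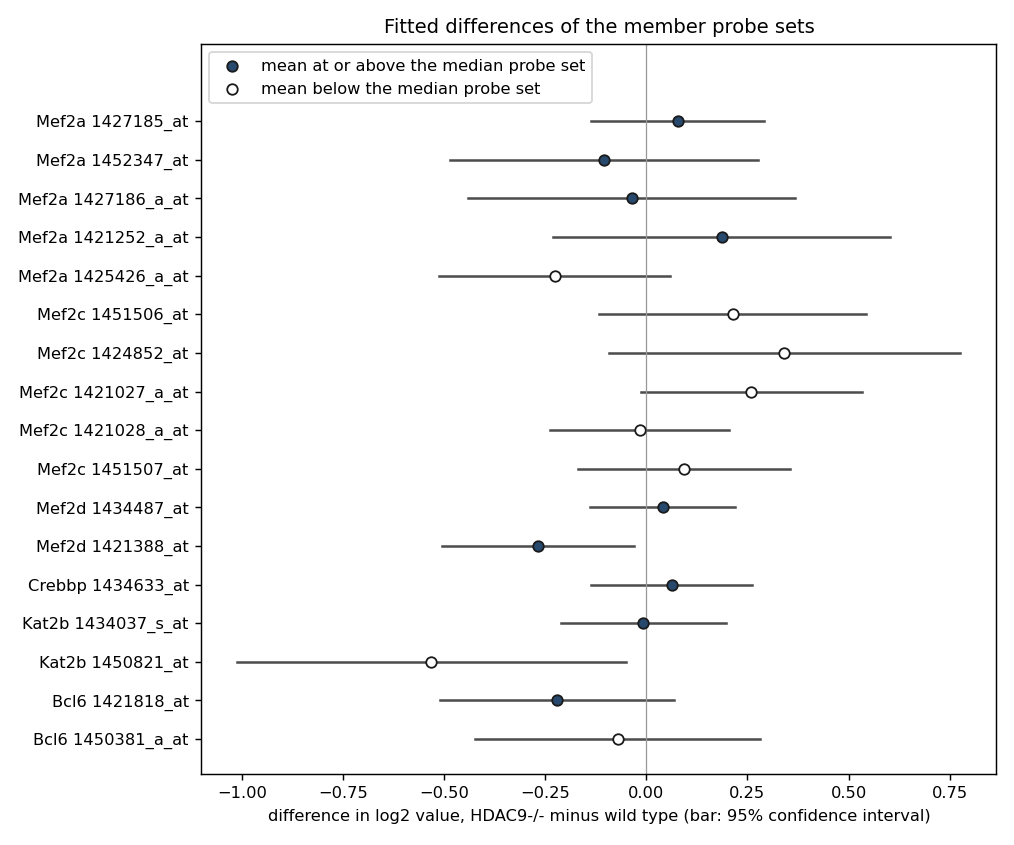
Points are the fitted differences in log2 value, HDAC9-/- minus wild type, of the 17 member probe sets, and bars are 95% confidence intervals. Filled points have a mean at or above the median probe set and open points one below it. The intervals of Mef2d 1421388_at and Kat2b 1450821_at leave out 0, with no adjusted p below 0.548.

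Crebbp encodes CBP, an acetyltransferase and coactivator close to p300. Its single probe set, 1434633_at, read 7.93, 8.11 and 8.08 in HDAC9-/- samples and 8.08, 7.96 and 7.89 in wild type samples. The groups overlapped (difference 0.063, 95% confidence interval -0.14 to 0.26, limma adjusted p = 0.824). Kat2b encodes PCAF, an acetyltransferase of coactivator complexes. Its bright probe set, 1434037_s_at, read 9.76, 9.71 and 9.89 in HDAC9-/- samples and 9.70, 9.77 and 9.90 in wild type samples. These groups were interleaved, and the difference of -0.0074 had a 95% confidence interval of -0.21 to 0.20 (limma adjusted p = 0.982).

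The other Kat2b probe set, 1450821_at, was dim. It read 4.33, 4.11 and 4.49 in HDAC9-/- samples against 4.75, 5.27 and 4.50 in wild type samples. The groups were separated by only 0.0079, the distance between HDAC9-/- replicate 3 and wild type replicate 3. The means were 4.31 ± 0.20 in HDAC9-/- and 4.84 ± 0.39 in wild type (SD, n = 3 each), a ratio of 0.692. The difference of -0.53 was the largest among the members (95% confidence interval -1.01 to -0.051), with an unadjusted limma p of 0.0346 and an adjusted p of 0.549. Without wild type replicate 2 it was -0.32. The gap between the Kat2b probe sets changed by -0.52, and the groups overlapped in that gap, so a difference between the probe sets was not shown (exact two-sided permutation test, p = 0.2, with 0.1 the smallest possible).

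Bcl6 did not pass on either of its probe sets, which are annotated to the same sequence record. Probe set 1421818_at read 7.09, 6.85 and 7.17 in HDAC9-/- samples and 7.08, 7.42 and 7.27 in wild type samples. The groups overlapped through HDAC9-/- replicates 1 and 3, each above the lowest wild type value. The difference was -0.22 (95% confidence interval -0.51 to 0.068, limma adjusted p = 0.627), and without HDAC9-/- replicate 2 it was -0.13, or -0.14 without wild type replicate 2. The dimmer 1450381_a_at differed by -0.071 (limma adjusted p = 0.887), with overlap. The gap between the Bcl6 probe sets changed by 0.15, with overlap (exact two-sided permutation test, p = 0.5).

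**Figure D3:**
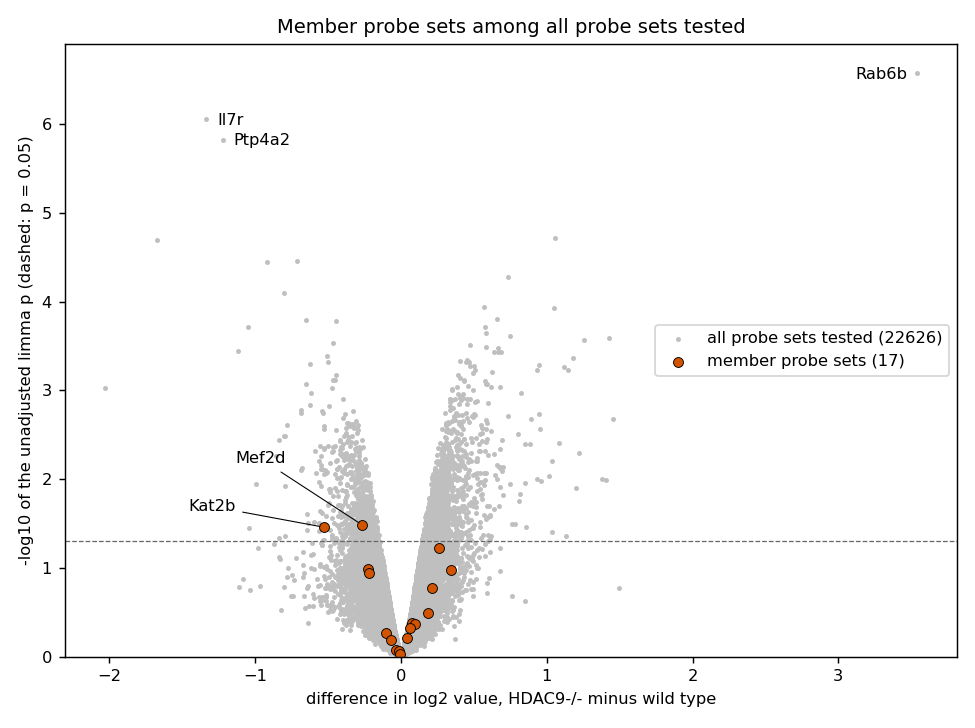
Each point is a probe set. The horizontal axis is the difference in log2 value, HDAC9-/- minus wild type, and the vertical axis is -log10 of the unadjusted limma p, with a dashed line at 0.05. The 17 member probe sets lie among the 22626 tested, and 2 of them are above the line.

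For the member probe set of smallest unadjusted p, Mef2d 1421388_at, the genes most alike over the 6 arrays were found by Pearson correlation among genes with a probe set at or above the median signal. They were Itsn2 (r = 0.977), Il17ra (r = 0.974), Lcp1 (r = 0.971), Gata2 (r = 0.971) and Ddx3x (r = 0.968). These are the highest of 10371 correlations over points that share the groups and the arrays, and are given as a description.

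Genes that work with the members were followed on the brightest probe set of each gene. By this rule 72 of 87 listed related genes were measured, with Bcl6 counted through the follicular list, and 0 passed at an adjusted limma p below 0.05, against 0.00807% of all 12393 genes. By unadjusted limma p below 0.05, 3 were higher and 5 were lower in HDAC9-/-, against 758 higher and 325 lower of all 12393 genes. Of the 72, 31 differences were positive and 41 negative (median -0.028), against 6697 positive and 5696 negative over all genes (median 0.0134). Groups did not overlap for 8 genes higher and 10 lower in HDAC9-/-, 25% in all, where 18.2% of all genes did not overlap in either direction. Over all 12393 genes, 1546 were separated with HDAC9-/- higher and 707 (5.70%) with HDAC9-/- lower.

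**Figure D4:**
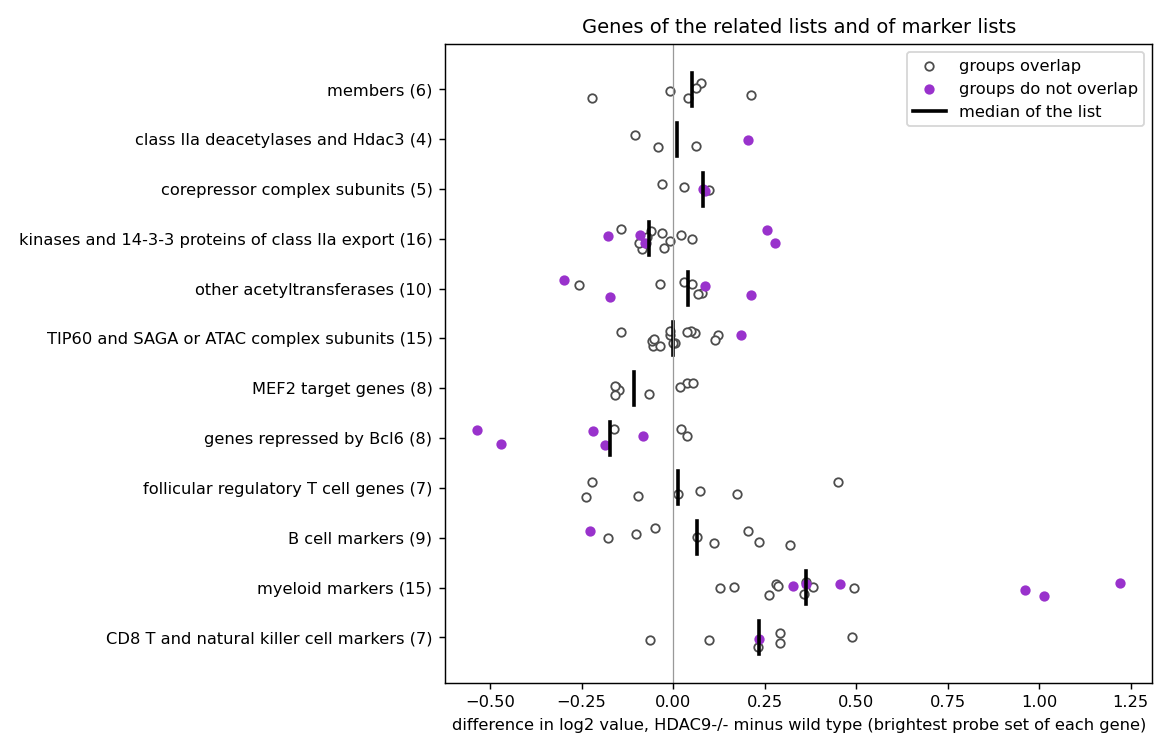
Each point is the brightest probe set of a gene, and the horizontal axis is its difference in log2 value, HDAC9-/- minus wild type. Filled points are genes whose groups do not overlap, and black ticks are the medians of the lists. The list of genes repressed by Bcl6 has its median at -0.17 and the myeloid list has its at 0.36.

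Among the class IIa deacetylases and Hdac3, 4 of 5 genes were measured and 0 passed, with 2 positive and 2 negative differences. Hdac3, the enzyme through which the class IIa complexes deacetylate, read 8.93, 8.89 and 8.92 in HDAC9-/- samples and 8.74, 8.84 and 8.55 in wild type samples. These groups did not overlap (difference 0.20, limma adjusted p = 0.577), the only separation among the 4 genes (25%, against 18.2% of all genes). Hdac7, a class IIa deacetylase of thymocytes and T cells, differed by 0.062 and Hdac5 by -0.040. Of the corepressor subunits, 5 of 8 were measured and 0 passed, with 4 positive and 1 negative difference. Differences were 0.098 for Cbx5, a heterochromatin protein, 0.089 for Tbl1x and 0.081 for Tbl1xr1, subunits of the NCoR complex, 0.031 for Ctbp1, a corepressor, and -0.030 for Gps2, a further NCoR subunit. On these brightest probe sets the groups did not overlap for Tbl1x and Tbl1xr1 (40% of the 5, against 18.2% of all genes). Both were higher in HDAC9-/-, with only 0.0087 and 0.012 between the groups. The other Tbl1x probe sets, 1434643_at and 1434644_at, had the opposite sign, with differences of -0.42 and -0.25 and overlap. For Tbl1xr1, 1455109_at and the dim 1422761_at were also higher in HDAC9-/- without overlap. Their differences were 0.38 and 0.20 (limma adjusted p = 0.449 and 0.557), with 0.17 and 0.036 between the groups. The remaining Tbl1xr1 probe set, 1450739_at, differed by 0.021 with overlap.

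Kinases and 14-3-3 proteins move class IIa deacetylases out of the nucleus. Of 18 such genes 16 were measured and 0 passed. Differences were positive for 4 and negative for 12 (median -0.065), where 6697 of 12393 genes were positive. Their groups did not overlap for 2 genes higher and 3 lower in HDAC9-/- (31.25%, against 18.2% of all genes). Sik1, a salt-inducible kinase, differed by 0.28 (limma adjusted p = 0.517), Camk2d, a calcium-dependent kinase, by 0.26 (limma adjusted p = 0.496), and Ywhag, a 14-3-3 protein, by -0.18 (limma adjusted p = 0.562). Prkd3, a protein kinase D, differed by -0.091.

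Other acetyltransferases and nuclear receptor coactivators had 10 of 13 genes measured and 0 passed, with 6 positive and 4 negative differences. Their groups did not overlap for 2 genes higher and 2 lower in HDAC9-/- (40%, against 18.2% of all genes). Kat6a, a MYST acetyltransferase, differed by -0.17 (limma adjusted p = 0.549). The coactivators Ncoa3 and Ncoa2 differed by -0.26 and -0.30, while Ncoa1 differed by 0.21. Subunits of the TIP60 and SAGA acetyltransferase complexes, the partners of Kat5 and Kat2b, had 15 of 19 measured and 0 passed, with 7 positive and 8 negative differences (median -0.00037). Groups did not overlap for 1 of the 15 (6.67%, against 18.2% of all genes). Those of smallest unadjusted limma p, 0.0231 to 0.192, differed by 0.19 for Taf5l, 0.12 for Tada2a, -0.14 for Epc1 and 0.11 for Dmap1.

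Genes known to be driven by MEF2 were read beside the RNA of the factors themselves. All 8 were measured and 0 passed, with 3 positive and 5 negative differences (median -0.11). The groups overlapped in every one, where 18.2% of all genes did not overlap. Nr4a1, an orphan receptor gene induced by antigen receptor signals, read 11.19, 10.94 and 11.05 in HDAC9-/- samples and 11.25, 11.18 and 11.22 in wild type samples. HDAC9-/- replicate 1 overlapped the wild type range (difference -0.16, limma adjusted p = 0.614). Nr4a3, its relative, differed by -0.16, Jun, an AP-1 subunit, by -0.15 and Egr1, an immediate early factor, by -0.065. Measured genes with the MEF2 consensus in a promoter window numbered 241, a list chosen after values were seen. Of these 0 were called, 119 differences were positive (49.4%) and the median was -0.0011, against 54.6% positive and a median of 0.0152 over 9887 genes with a window. Their groups did not overlap for 14.1% of genes, against 18.5% of all genes with a window.

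Genes known to be repressed by Bcl6 had mean levels of 9.86, 9.90 and 9.91 in HDAC9-/- samples and 10.11, 10.06 and 10.10 in wild type samples. Of 9 such genes 8 were measured and 0 passed, with 2 positive and 6 negative differences (median -0.17). For 5 of the 8 (62.5%) the groups did not overlap with HDAC9-/- lower, where 5.70% of all genes were separated in that direction. That count was 3 when array medians were aligned. The distance between the groups was 0.29 for Tbx21 and 0.125 for Id2. It was only 0.020 for S1pr1, 0.018 for Il7r and 0.0016 for Selplg, which differed by -0.082 (limma adjusted p = 0.719). Some of these genes were known to be low from earlier results of these data, so the count is not independent evidence of the direction. Natural killer and CD8 T cells also express several of these genes, and the markers of those cells had a median difference of 0.24, higher in HDAC9-/-. The part of such cells was not tested.

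**Figure D5:**
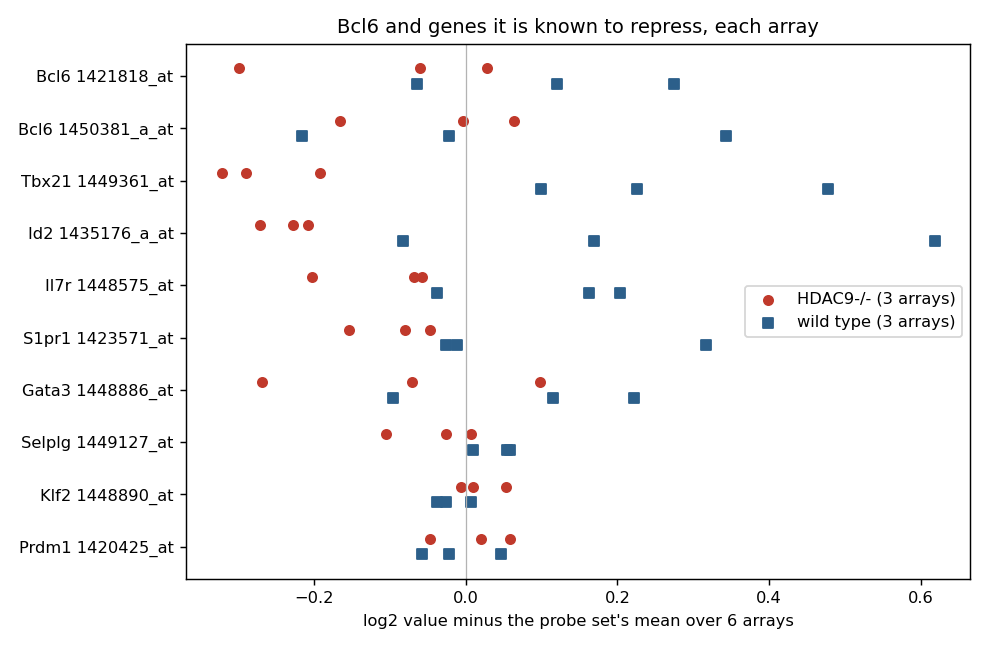
Each row is a probe set of Bcl6 or the brightest of a gene that Bcl6 is known to repress, and the horizontal axis is its log2 value on an array minus its mean over the 6 arrays. Circles are the 3 HDAC9-/- arrays and squares the 3 wild type arrays. Tbx21, Id2, Il7r, S1pr1 and Selplg have all HDAC9-/- points below the wild type points, while Bcl6 itself overlaps.

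Tbx21 (T-bet, the master regulator of type 1 helper cells) read 7.74, 7.83 and 7.71 in HDAC9-/- samples and 8.50, 8.13 and 8.25 in wild type samples. The groups did not overlap (difference -0.54, limma adjusted p = 0.398). Id2, an inhibitor of E proteins, read 10.17, 10.21 and 10.23 in HDAC9-/- samples and 10.61, 10.36 and 11.06 in wild type samples, also without overlap (difference -0.47, limma adjusted p = 0.542). Without wild type replicate 3 its difference was -0.28. Il7r, the interleukin-7 receptor, read 11.01, 11.15 and 11.14 in HDAC9-/- samples against 11.37, 11.17 and 11.41 in wild type samples on its brightest probe set (difference -0.22, limma adjusted p = 0.561). A dimmer Il7r probe set, 1448576_at, with a mean still above the median signal, fell by 1.34 in HDAC9-/- and passed the test (limma adjusted p = 0.00999). The call is not shared by the brightest probe set. It was also lost without any 1 of the HDAC9-/- replicates, without wild type replicate 1 and under a replicate block, where 0 probe sets of the array passed. S1pr1, a receptor for exit from lymphoid tissue, differed by -0.19.

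Follicular regulatory T cells depend on Bcl6, and 7 of 8 listed genes of follicular T cells, helper or regulatory, were measured, Bcl6 among them. None passed or was separate between groups, where 18.2% of all genes were separate. There were 4 positive and 3 negative differences (median 0.014). Il21, a follicular helper cytokine, differed by 0.45 (limma adjusted p = 0.599), Pdcd1, which encodes PD-1, by -0.24 (limma adjusted p = 0.654) and Sh2d1a, an adaptor needed for follicular help, by 0.072. When 1 array was left out, Il21 ranged from 0.26 to 0.64 and Pdcd1 from -0.40 to -0.12.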

How the data were processed

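RNA of CD4+CD25+ Treg from 3 HDAC9-/- and 3 wild type samples was read on 1 Affymetrix array each. The deposited table holds log2 expression values, which the authors obtained with RMA, according to what is stated per the submitters' processing notes. The sources used here give no version or settings of RMA. Values ran from 2.42 to 14.32. No depth applies to arrays, and precision is limited by how many there are. Groups were taken from the labels, and 0 columns of sample values went unused.

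From 22690 probe sets, 64 controls were left out and 22626 were tested with limma 3.58.1 under R 4.3.3, using lmFit and eBayes with genotype as the only term and no filter on signal. Benjamini-Hochberg adjustment ran over all of them with a threshold of 0.05. Names came from the platform annotation, where 20380 probe sets carry 1 symbol, 691 several and 1555 none, and 20351 were updated through Entrez identifiers. Only probe sets with 1 symbol were named. Promoter windows were RefSeq's for GRCm38.p6.

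Named were all member probe sets, Hdac9, from each list up to 4 genes of smallest unadjusted p and, for the member of smallest p, the 5 genes most correlated with it. Foxp3, Il2ra, Gps2, Selplg and the dimmer Tbl1x, Tbl1xr1 and Il7r probe sets were named after their values were seen. Members and lists were chosen with earlier results of these data known, and the contrast between probe sets of a gene and the promoter list were chosen after values were seen. The fit was tested on simulated data. Alternatives tried were another quantile normalization, aligned array medians, dim probe sets left out, a trended and robust prior, array weights, a block for the replicate number, other thresholds, averaging the probe sets of a gene and each array left out. Plots were drawn with Python 3.11.15 and matplotlib 3.10.9.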

Additional observations from a re-analysis of the deposited data

How the results depend on the processing

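No member probe set passed the adjusted threshold under any alternative run, and the lowest adjusted p over 196 refitted values was 0.256, for Kat2b 1450821_at with array weights. At an unadjusted p below 0.05, 2 member probe sets passed and 8 of the related genes, where 8.78% of all probe sets passed. At the adjusted threshold 0 of each passed. The number of member probe sets with separate groups was 1 with dim probe sets left out and 2 to 6 when 1 array was left out, with fewer arrays to keep apart. It was 6 without wild type replicate 2, 4 without wild type replicate 3 or HDAC9-/- replicate 1 or 3, and 3 without wild type replicate 1. The share of all probe sets separated with 1 array left out was not computed. The 17.0% given above holds for 3 arrays against 3, so these counts cannot be read against it. Mef2d 1421388_at ranged from -0.32 to -0.18 and Kat2b 1450821_at from -0.70 to -0.32, with no change of sign. Of the 196 values, 15 in 6 probe sets had the other sign. With array weights Mef2c 1421028_a_at was 0.0295, Kat2b 1434037_s_at 0.0146, Hdac9 0.000368 and Hdac5 0.00776, and with quantile normalization Mef2c 1421028_a_at was 0.0098. Leaving out 1 array gave -0.23 to 0.034 for Mef2a 1452347_at, -0.15 to 0.15 for Mef2a 1427186_a_at, -0.084 to 0.040 for Mef2c 1421028_a_at, -0.0023 to 0.089 for Mef2d 1434487_at, -0.059 to 0.050 for Kat2b 1434037_s_at and -0.20 to 0.084 for Bcl6 1450381_a_at. Among related genes it gave -0.24 to 0.054 for Hdac9, -0.068 to 0.014 for Hdac5 and -0.0022 to 0.053 for Ctbp1. The median of the MEF2 targets, -0.107, was -0.033 without HDAC9-/- replicate 1, -0.041 without wild type replicate 2, -0.065 with dim probe sets left out and -0.052 after averaging each gene's probe sets. The median of the genes repressed by Bcl6 was -0.22 without HDAC9-/- replicate 3 and -0.094 without wild type replicate 2, and their count of separate genes, 5, was 3 with array medians aligned and 4 with quantile normalization. The causes of these shifts were not tested.

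Over all probe sets, 3 passed, against 15 with the trended and robust prior, 6 with array weights, 5 at an adjusted p of 0.10 and 1987 at an unadjusted p of 0.05, and 0 to 6 when 1 array was left out. It was 0 without any of the HDAC9-/- replicates or wild type replicate 1, 1 when wild type replicate 2 was dropped and 6 when replicate 3 was. Deviations of same-numbered samples correlated at 0.036, 0.099 and -0.249, and those of differently numbered samples at -0.346 to 0.276. With 3 arrays a group these values cannot decide whether the replicate numbers pair the samples. Under a block for the replicate number (replicate block) 0 probe sets passed, members included. With 3 arrays a group and 8 member probe sets below the median signal, changes of dim members smaller than their intervals cannot be seen.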

Other observations

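On the Camk2d probe set 1427763_a_at the 3 HDAC9-/- arrays held the same value, 7.10, against 6.95, 6.88 and 6.71 on the wild type arrays. It was the only 1 of 22626 probe sets with 3 identical values in a group, while 512 probe sets had at least 2 identical arrays and no member was among them. Another probe set of Camk2d differed by -0.067.

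Values of further probe sets of related genes are given here. Tbl1xr1 differed by 0.081 on its brightest probe set and by 0.38, 0.20 and 0.021 on the others. Id2 differed by -0.47 on its brightest and by -0.36 and -0.042 on the others, and Jun by -0.15 and 0.072.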
